A study of Mus musculus with 24 samples.

Results

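The 7 aortic RNA-seq libraries of wild type mice given β-aminopropionitrile (WT-BAPN) were compared with each other, gene by gene, and no group was set against another. These are 7 of the 24 libraries of the series, the others coming from WT mice on plain water and from mice with an ATAD3A knock-in (KI) with or without BAPN. Per the labels' protocols, the 7 animals were males whose drinking water held 0.5% (w/v) BAPN, which inhibits lysyl oxidase, from 3 weeks of age for 28 days, to induce aneurysm and dissection of the aorta. Polyadenylated RNA was taken from the aorta between its ascending part and its abdominal bifurcation. The labels name these animals wild type and give no strain. They also give no outcome of the treatment, no batch and no time of collection for any animal. Replicates are listed as separate samples, so the spread described here is the spread between these samples, and how much of it is technical was not tested.

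Of 21959 genes in the count table, the 10830 with a mean of at least 5 CPM (counts relative to the library total, adjusted by scaling factors) over the 7 libraries were ordered by the standard deviation (SD) of their log2 CPM across the libraries. An SD of 1 means that a library typically lies a factor of 2 from the mean. Because the filter is on the mean, a gene silent in most libraries passed it when 1 or a few libraries were high.

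Lysyl oxidases are copper enzymes that cross-link collagen and elastin, the fibres that bear the load of the aortic wall, and BAPN blocks them. The wall consists mostly of smooth muscle between elastic sheets, with an endothelium inside and a fibroblast layer outside. Fat, small vessels, nerves and, near the heart and along body cavities, cardiac muscle and mesothelium lie against it, and macrophages enter it after injury. A library of whole tissue is a sum over all these cells. In such a sum, fewer cells of a type and less RNA per cell cannot be told apart, which holds for every cell type marker below.

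The libraries held 13908765 to 22412134 counts, and 15437 to 16889 genes had at least 1 count. Between 4.24 and 12.8% of counts came from genes of the mitochondrial genome. No pair of libraries was identical, and correlations of log2 CPM across genes ran from 0.849 to 0.972. Ddx3y, a gene of the Y chromosome, had 83.5 to 140.7 CPM in the 7 libraries, and all 7 libraries are labelled male. The smooth muscle genes that define the wall were high in every library, Acta2 at 9547 to 32499 CPM and Myh11 at 3148 to 7747 CPM. Replicate 7 stood apart most. It held 29.4% of the squared deviation from the gene means summed over all genes, against 6.88 to 17.2% for the other libraries, so the counts that it moves by over 1.5 times, and the fat and globin counts, are given with and without it.

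Large spread was found in few genes. The median SD was 0.29 log2 units, the 90th percentile 0.65 and the 99th percentile 1.68. An SD of 1 or more was found for 487 genes, 4.5% of those measured, and an SD of 2 or more for 44. That 4.5% is the background for counts below of list members with an SD of 1 or more over all 7 libraries. Counts with a library left out, or under another setting, have other backgrounds. Counting error alone would give a median SD of 0.06, and 99.6% of genes varied more than their own counting error. The last gene above this limit was the homeobox gene Hoxa7 (SD 1.0002) and the first below it Dll1 (0.9997), a ligand of Notch receptors, so the limit divides a continuous range.

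**Figure D1:**
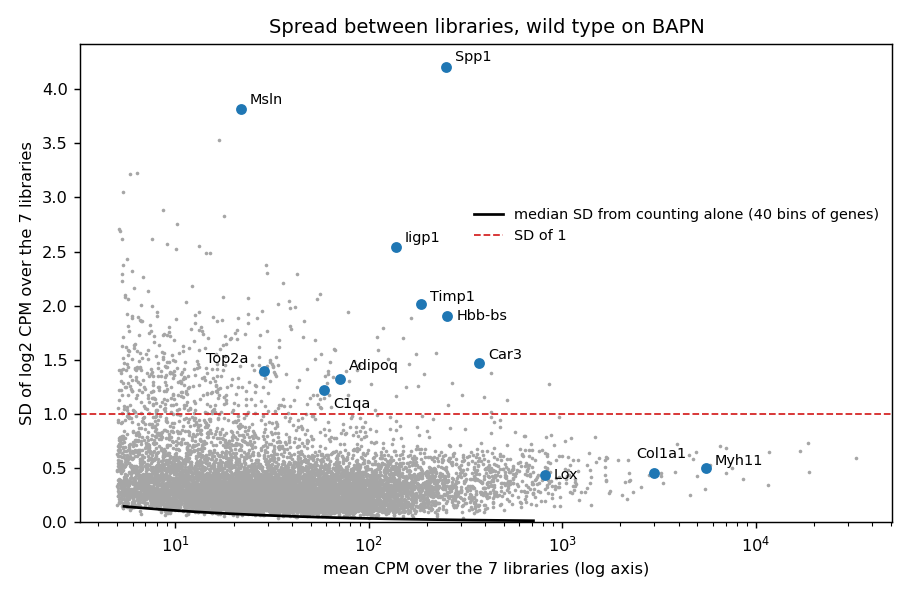
Each grey point is 1 of 10830 genes, placed by its mean CPM over the 7 WT-BAPN libraries (log axis) and the SD of its log2 CPM. The black line is the median SD from counting alone in 40 bins of genes, the dashed line an SD of 1. Spp1 (4.21) and Msln (3.82) lie at the top, while Col1a1 (0.46), Myh11 (0.50) and Lox (0.44) lie below an SD of 1 at far higher levels, each above the median SD of 0.29.

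Spp1, which encodes osteopontin, a secreted matrix protein of activated macrophages and injured tissue, varied most of all genes. Its level was 2.05, 96.8, 1.25, 1.45, 1137, 3.27 and 506 CPM in replicates 1 to 7, an SD of 4.21 log2 units. Replicates 5 and 7 were very high, replicate 2 was intermediate, and the other 4 lay near the bottom. Msln, the mesothelial surface protein mesothelin, came next with 4.90, 42.1, 0.348, 0, 75.5, 29.7 and 0.216 CPM and an SD of 3.82. Replicates 5, 2 and 6 were high, in that order, and replicate 4 had no count.

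The 25 genes of largest SD held 5 of the mesothelium list and 5 of the cardiac muscle list. The mesothelial ones were Msln, Upk3b, Upk1b, Lrrn4 and Krt7, and the cardiac ones were the sarcomere genes Myl2, Myl3, Myh6, Myl7 and Mybpc3. The guanylate binding protein and GTPase genes Iigp1, Gbp6, Gbp8 and Tgtp2, and Zbp1, a sensor of nucleic acids, are all induced by interferons. Arg1, Clec4n and Mpeg1 are genes of macrophages, and Mmp12 encodes the macrophage elastase. Col10a1 encodes a collagen of growth plate cartilage, Prg4 the lubricant lubricin of joints and serosal surfaces, and Aldh1a2 an enzyme that makes retinoic acid. Aspg encodes an asparaginase and Slc27a2 a fatty acid transporter. In 21 of these 25 genes at least 1 library was under 1 CPM, so their order leans on low values.

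The 200 genes of largest SD (SD from 1.42 to 4.21) were joined by the correlation of their log2 CPM, with average linkage cut at r = 0.6. They fell into 4 groups of 85, 48, 43 and 24 genes, with none left over. The background for list members in a group is thus 85, 48, 43 or 24 of the 10830 measured genes, and not 4.5%. Over all pairs of measured genes the median r was 0.004 and the 95th percentile 0.806, so a high correlation alone sets no pair apart. The groups are descriptions of these 7 libraries and were not tested. Of the 200 genes, 72 belonged to a gene list used here and 128 to none.

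**Figure D2:**
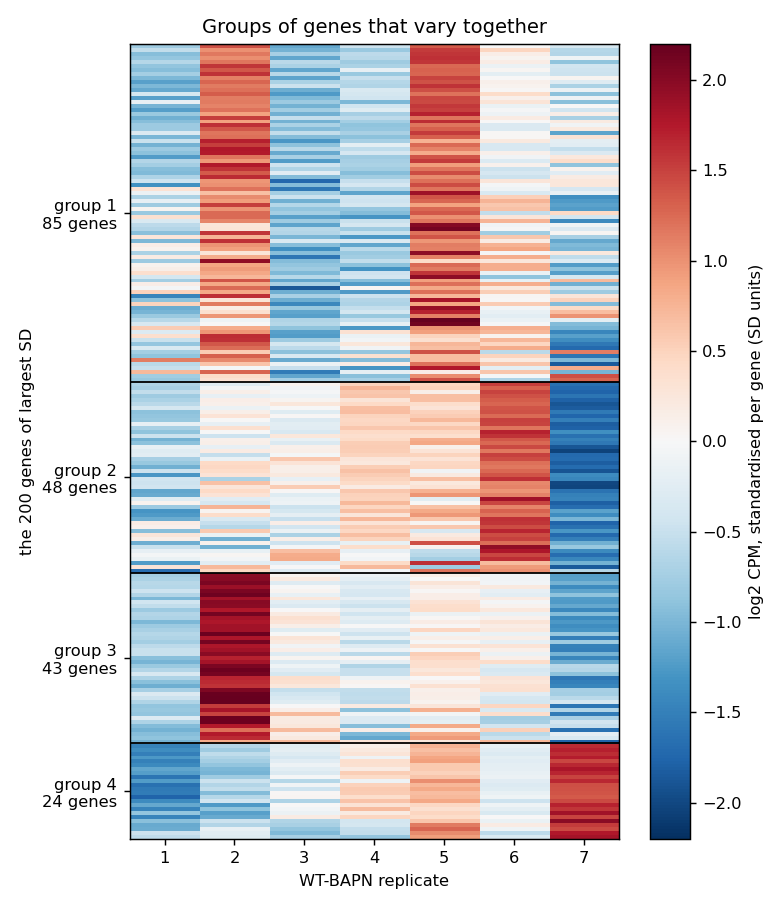
Rows are the 200 genes of largest SD in their 4 groups, columns the 7 WT-BAPN replicates. Colour is log2 CPM standardised per gene. Group 1 (85 genes) is red in replicates 2 and 5, group 2 (48 genes) red in replicate 6 and blue in replicate 7, group 3 (43 genes) red in replicate 2, and group 4 (24 genes) red in replicate 7 and blue in replicate 1.

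The first group, of 85 genes, was high in replicates 5 and 2 and joined 8 of 25 macrophage genes, 6 of 10 mesothelial genes, 7 of 10 cardiac genes and 4 of 19 injury genes. Its median pairwise r was 0.77 and its lowest -0.12, so it is looser than the others. The genes closest to its mean were Ptpn6, Prg4, Myl3, Mybpc3 and Myl2. Ptpn6 encodes the phosphatase SHP-1 of blood cells and had 1.89, 16.9, 1.32, 2.62, 16.2, 4.21 and 2.86 CPM. Replicates 2 and 5 were thus well above the others, which lay close together.

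The second group, of 48 genes, was high in replicate 6 and low in replicate 7, with a median pairwise r of 0.88. It held 6 of 21 white adipocyte genes, 3 of 10 brown adipocyte genes, all 4 measured globin genes and 1 of 18 endothelial genes. The genes nearest its mean were Car3, a carbonic anhydrase abundant in fat, Aqp7, the glycerol channel of adipocytes, the transcription factor Tbx3, Btnl9 and Ankef1. Car3 had 124, 184, 267, 414, 401, 1159 and 46.2 CPM, with replicate 6 far above and replicate 7 below the rest.

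The third group, of 43 genes, was high in replicate 2 (median pairwise r 0.92) and held 10 of 14 interferon genes. Nearest its mean were Iigp1, Gbp3, Rtp4, Gbp7 and Gm4951, of which Iigp1, Gbp3, Rtp4 and Gbp7 are known as interferon-induced. The fourth group, of 24 genes, was high in replicate 7 and low in replicate 1 (median pairwise r 0.94). It held 11 of 29 mitosis genes and Timp1, and nearest its mean were Ccnb1, Cdk1, Ube2c, Kif2c and Birc5, all of the mitotic machinery.

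Mitosis genes varied together. Of 29 measured members, 27 had an SD of 1 or more, against 4.5% of all genes, and the median SD was 1.40 against 0.29. All 29 were highest in replicate 7 and 26 were lowest in replicate 1. In 28 of 29, the 3 highest libraries were replicates 4, 5 and 7. The median correlation between members was 0.96.

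Top2a, the topoisomerase that untangles chromosomes before division, had 4.85, 7.91, 15.6, 27.4, 40.9, 17.5 and 87.3 CPM, a mean of 28.8 ± 28.5 (SD, n = 7). Cdk1, the kinase that starts mitosis, ran from 1.83 CPM in replicate 1 over a median of 8.37 to 68.5 CPM in replicate 7. Ccnb1, its cyclin partner, had 1.29, 2.65, 5.36, 8.72, 14.5, 5.05 and 49.9 CPM. In these genes replicate 7 was highest, replicate 5 next and replicate 1 lowest, and the values between them were spread out.

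The most variable members were Nuf2 (SD 1.72), a kinetochore protein, the kinase Pbk (1.71), Ccnb1 (1.67), Cdk1 (1.65), Ube2c (1.60), a ubiquitin-conjugating enzyme that ends mitosis, and Hmmr (1.53), a spindle protein. The 5 genes closest to Top2a over all measured genes were Foxm1, the transcription factor that drives mitotic genes, and Cenpf (both r = 0.998), Ccna2, Cdca3 and Ube2c (all r = 0.99). Without replicate 7, 16 mitosis members had an SD of 1 or more, and the SD of Top2a was 1.12 in place of 1.40. The spread of these genes is therefore smaller, but present, among the other 6 libraries.

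Genes of DNA replication varied less than mitosis genes, but more than all genes together. Of 19 measured members, 2 had an SD of 1 or more, against 4.5% of all genes, and the median SD was 0.64 against 0.29. The 2 were Rrm2 (1.36), a subunit of ribonucleotide reductase, and Uhrf1 (1.21), which carries DNA methylation through replication. All 19 were highest in replicate 7 and 13 lowest in replicate 1. Without replicate 7, 1 member had an SD of 1 or more. Tyms, which makes thymidylate, had 7.86, 7.04, 8.07, 8.79, 16.1, 9.59 and 42.8 CPM, so replicates 7 and 5 stood above 5 nearly level libraries. The scores of the 2 lists, the mean log2 CPM of their measured members, had r = 0.94 and rho = 0.89 over n = 7 libraries, and r = 0.81 without the 2 farthest libraries. Such correlations between list scores describe points that share library and depth, and no p is given for them.

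The sequences upstream of the start of mitosis genes are shown because these 29 genes went together at a median r of 0.96. They are the 250 bases before the start in the RefSeq table of build GRCm38.p6, on the gene's own strand, with each CCAAT (or its reverse complement) in capitals. The table had an entry for 24 of the 29 measured members, with Ccna2, Aurkb, Kif20a, Tpx2 and Pbk missing. CCAAT was found in 19 of the 24, that is 79.2%, and in 34.5% of all 27025 promoters of the table. The letters TTTGAA of the cell cycle homology region, searched on both strands, were found in 10 of the 24, that is 41.7%, and in 16.3% of all promoters. Top2a is printed as the marker gene, Ccnb1 and Cdk1 as the most variable members with a match. Top2a (chr11:99024190-99024439, minus strand) held 6 matches, Ccnb1 (chr13:100786487-100786736, minus strand) 2 and Cdk1 (chr10:69352913-69353162, minus strand) 3, and the match nearest to the start lay 53, 62 and 43 bases before it.
Top2a: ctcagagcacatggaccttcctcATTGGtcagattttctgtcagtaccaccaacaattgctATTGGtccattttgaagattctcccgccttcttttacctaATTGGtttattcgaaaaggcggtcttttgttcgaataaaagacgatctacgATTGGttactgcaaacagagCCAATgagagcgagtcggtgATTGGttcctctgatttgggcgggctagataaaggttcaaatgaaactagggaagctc
Ccnb1: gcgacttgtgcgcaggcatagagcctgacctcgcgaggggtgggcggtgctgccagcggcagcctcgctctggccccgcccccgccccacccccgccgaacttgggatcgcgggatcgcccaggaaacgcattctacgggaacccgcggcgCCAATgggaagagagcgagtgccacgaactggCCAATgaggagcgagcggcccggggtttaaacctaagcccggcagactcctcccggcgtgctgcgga
Cdk1: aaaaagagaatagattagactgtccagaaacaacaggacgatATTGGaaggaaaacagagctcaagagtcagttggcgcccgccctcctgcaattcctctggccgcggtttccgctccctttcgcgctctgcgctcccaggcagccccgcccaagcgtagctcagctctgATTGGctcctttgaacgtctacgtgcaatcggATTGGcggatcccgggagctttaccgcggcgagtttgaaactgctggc
A match is a description of the letters and not evidence of binding.

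Most macrophage genes were high in replicates 2 and 5. Of 25 measured members, 23 had an SD of 1 or more, against 4.5% of all genes, and the median SD was 1.36. The 2 highest libraries were replicates 2 and 5 in 22 of the 25, replicate 3 was lowest in 18, and the median pairwise r was 0.91. The exceptions were Lyve1, Cd163 and Cd14. Lyve1 had 82.6, 14.5 and 27.6 CPM in replicates 2, 5 and 6, and Cd163 40.3, 9.09 and 25.6 CPM. Cd14 was highest in replicates 5 and 7. Summed over the list, the level ran from 257 CPM in replicate 3 to 1988 CPM in replicate 2.

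C1qa, a chain of the first complement component made by tissue macrophages, had 27.4, 158, 14.1, 24.0, 105, 39.9 and 42.3 CPM, a mean of 58.8 ± 53.1 (SD, n = 7). Its closest genes were Hcls1, an actin regulator of blood cells, the other complement chains C1qb and C1qc (all r = 0.99), Fcer1g, an adaptor of Fc receptors (r = 0.99), and Plac8 (r = 0.98). The most variable members were Mpeg1 (SD 2.30), which makes pores in engulfed bacteria, Ccr2 (2.03), the receptor that brings monocytes into tissue, Ms4a7 (1.82), Trem2 (1.73), the protease gene Ctss (1.71) and Fcgr1 (1.65), a receptor for antibodies.

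Ccr2 was at 0.808, 27.0, 1.81, 1.60, 36.7, 4.55 and 7.18 CPM. Among macrophage-related genes of the first 25, Arg1, which splits arginine, was at 49.9 CPM in replicate 5 and at 7.34 CPM or less in the others. Clec4n, a lectin for fungal sugars, was at 55.9 CPM in replicate 5 and at no more than 2.74 CPM elsewhere. Replicate 2, where C1qa was highest, was thus far below replicate 5 for both genes.

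Of the 11 measured cytokine and chemokine genes, 6 had an SD of 1 or more. Ccl2, which draws monocytes, had 0.970, 11.6, 0.557, 0.944, 13.8, 2.27 and 11.7 CPM, so replicate 7 was close to replicates 2 and 5. The related Ccl7 (SD 1.90) and Ccl8 (1.81) were both highest in replicate 2. Listed genes of other leukocytes were near the limit of detection. Trac of the T cell list, and Ighm and Igkc of the B cell list, were not found by name and are not covered. None of the neutrophil, T cell or B cell genes found reached a mean of 5 CPM. Summed over the table's members these lists stayed at or below 10.5, 11.2 and 6.9 CPM in every library.

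Interferon-induced genes were high in 1 library. Of 14 measured members, 13 had an SD of 1 or more, all 14 were highest in replicate 2, and 10 were lowest in replicate 7. Summed over the list, replicate 2 had 2249 CPM and the others 112 to 268 CPM.

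Irf7, the transcription factor that amplifies the interferon response, had 4.90, 208, 6.68, 5.52, 15.5, 8.87 and 1.35 CPM. Iigp1, a GTPase that attacks the vacuoles of intracellular parasites, had 7.43, 854, 36.3, 17.1, 25.9, 21.9 and 2.97 CPM. Replicate 2 was the highest for both genes, and the other 6 libraries also differed, from 1.35 to 15.5 CPM for Irf7 and from 2.97 to 36.3 CPM for Iigp1. Zbp1 (SD 2.49), Irf7 (2.21), Ifi44 (2.16), Ifit1 (2.08), Gbp3 (2.06) and Oasl2 (1.98) were the most variable members. Without replicate 2, 3 members had an SD of 1 or more, and the SD of Irf7 was 1.14, of Zbp1 1.096 and of Gbp3 1.11.

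Upstream sequences of 3 interferon genes are shown because all 14 measured members of their list were highest in replicate 2. Their 250 bases before the start, from the same table, carry in capitals the core of the interferon-stimulated response element, which reads GAAA, any 2 bases and GAAA again, or its reverse complement. The table had 11 of the 14 measured members (78.6%), and since this is under 80% no share of the list is read. The letters were found upstream of Ifit1, Gbp3, Ifit3, Isg15, Rsad2, Gbp2 and Bst2, and in 3.04% of all promoters. Those printed are the 3 most variable members with a match, each with 2 matches. They are Ifit1 (chr19:34640639-34640888, plus strand), Gbp3 (chr3:142559794-142560043, plus strand, where both overlap) and Ifit3 (chr19:34583279-34583528, plus strand).
Ifit1: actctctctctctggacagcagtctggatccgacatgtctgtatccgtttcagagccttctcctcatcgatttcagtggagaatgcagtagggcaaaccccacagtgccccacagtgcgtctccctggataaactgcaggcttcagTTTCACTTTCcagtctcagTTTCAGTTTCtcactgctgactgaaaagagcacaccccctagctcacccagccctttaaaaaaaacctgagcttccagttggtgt
Gbp3: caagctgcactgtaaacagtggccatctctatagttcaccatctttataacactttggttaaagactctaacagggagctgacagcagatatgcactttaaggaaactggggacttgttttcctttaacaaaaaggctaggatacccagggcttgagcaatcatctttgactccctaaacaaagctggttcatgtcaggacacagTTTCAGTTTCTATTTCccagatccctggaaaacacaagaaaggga
Ifit3: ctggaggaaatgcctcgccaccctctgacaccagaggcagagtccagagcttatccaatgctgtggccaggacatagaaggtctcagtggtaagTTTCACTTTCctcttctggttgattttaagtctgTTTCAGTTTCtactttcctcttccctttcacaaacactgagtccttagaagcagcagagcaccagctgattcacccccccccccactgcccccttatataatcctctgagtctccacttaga
In Ifit1, Gbp3 and Ifit3 the nearest match ended 75, 29 and 112 bases before the start.

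Mesothelial and cardiac genes were high in overlapping sets of libraries. Mesothelium is the flat epithelium that covers the heart, lungs and abdominal organs. Of 10 measured mesothelial genes, 8 had an SD of 1 or more (median 2.12), and the 3 highest libraries were replicates 2, 5 and 6 in 9 of them, with replicates 2 and 5 the 2 highest in 6. Of 10 measured cardiac genes, 8 had an SD of 1 or more (median 2.30), replicates 2, 5 and 6 were the 3 highest in 6, and replicates 2 and 5 the 2 highest in 8. Some members passed the limit of 5 CPM only through their high libraries, such as Myl2 (mean 6.33, median 0.145 CPM) and Upk1b (mean 5.85, median 1.89 CPM). The shared high libraries are therefore partly set by that limit.

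Upk3b, a membrane protein of urothelium and mesothelium, had 15.6, 28.7, 0.348, 0.0726, 44.9, 28.1 and 0.216 CPM. Upk1b, a tetraspanin of the same cells, had 1.89, 13.04, 0.0696, 0, 18.0, 7.93 and 0.0540 CPM. Replicates 3, 4 and 7 were at or near 0 for both genes and for Msln. The genes closest to Msln were Krt7, a keratin (r = 0.997), Upk1b (0.995), Aldh1a2 and Upk3b (both 0.98) and Gpm6a (0.98). Summed over the table's members the mesothelium list had 137.6, 308.6, 56.2, 70.1, 430.0, 287.3 and 86.8 CPM.

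Myh6, the heavy chain of atrial and adult mouse cardiac myosin, had 2.91, 39.96, 0.766, 0.509, 73.5, 7.26 and 0.594 CPM. Myl2, the light chain of ventricular myosin, had 0, 12.4, 0.0696, 0.145, 30.4, 1.16 and 0.108 CPM. Myl7, the atrial light chain, had 4.69, 8.78, 0.139, 0.0726, 17.4, 4.94 and 0.324 CPM. Replicate 5 was highest and replicate 2 second for all 3 genes, and the cardiac list summed to 60.5 to 382 CPM. Skeletal muscle genes did not follow, since none reached a mean of 5 CPM and their sum stayed between 10.1 and 17.1 CPM.

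The mesothelial and cardiac scores had r = 0.94 and rho = 0.96 over n = 7 libraries, and r = 0.93 to 0.97 with 1 library left out. Without replicates 4 and 7, the farthest in the mesothelial score and both low in it, r was 0.92. Replicates 2 and 5 were not left out together for this pair. Both scores hold members that passed the mean CPM limit only through their high libraries, so this r is partly set by that limit. The macrophage score had r = 0.90 (rho 0.71) with the cardiac and r = 0.74 (rho 0.57) with the mesothelial score. Without replicates 2 and 5, the farthest in the macrophage score, these were 0.41 and 0.32, so both rest on those 2 libraries. Whether other tissue left on the aorta contributed to these levels was not tested. Counts of variable members depended on single libraries. Without replicate 2, 5 or 6, the mesothelial count was 5, 4 and 4, and without replicate 2 or 5 the cardiac count was 5 and 3.

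Fat genes followed another order. White adipocyte genes had an SD of 1 or more in 16 of 21 measured members (median 1.32). Replicate 6 was highest in 19 of 21 and replicate 7 lowest in 19 of 21. With the median absolute deviation in place of the SD, which gives single libraries less weight, 7 members passed. Without replicate 7, 11 members passed, and the SD of Adipoq was 0.95 in place of 1.32.

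Adipoq, which encodes the adipocyte hormone adiponectin, had 32.6, 40.8, 52.3, 78.2, 73.6, 210 and 10.5 CPM, a mean of 71.1 ± 65.4 (SD, n = 7). Its closest genes were Lipe, the hormone-sensitive lipase, and Car3 (both r = 0.996), Mrap, Jag2 and Slc36a2 (all r = 0.99). Pck1 (SD 1.79), an enzyme of glycerol synthesis in fat, had 35.6, 36.1, 86.8, 99.96, 102, 460 and 8.15 CPM. Adrb3 (1.78), the adrenergic receptor that starts fat breakdown, the lipid droplet protein Plin1 (1.69), Dgat2 (1.53), Car3 (1.47) and Cd36 (1.46) completed the 6 most variable.

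Of 10 measured brown adipocyte genes, 4 had an SD of 1 or more. Ucp1, the protein that makes brown fat produce heat, had 28.3, 11.04, 14.7, 51.9, 54.3, 162 and 2.97 CPM. Replicate 6 was highest and replicate 7 lowest, as for Adipoq. The 4 measured globin genes, carried by red blood cells, were all highest in replicate 6 and lowest in replicate 7. Hbb-bs had 99.3, 113, 369, 112, 45.2, 1026 and 18.1 CPM, with an SD of 1.90, and 1.61 without replicate 7. Without that library the brown fat count was again 4, and 5 erythroid genes had an SD of 1 or more. The limit of 5 CPM was then applied to the mean of the libraries left, so the erythroid list held more measured genes. Reads of the near-identical pairs Hbb-bs and Hbb-bt, and Hba-a1 and Hba-a2, may be split between copies, so single values are uncertain.

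Endothelial genes partly shared this order. Of 18 measured members, 5 had an SD of 1 or more, 12 were highest in replicate 6 and 15 lowest in replicate 7. Kdr, the main receptor for vascular growth factor, had 9.48, 26.6, 17.1, 40.5, 54.9, 83.7 and 4.75 CPM. White fat and endothelium scores had r = 0.92 and rho = 0.96 over n = 7, and r = 0.67 without the 2 farthest libraries. White fat and globin scores had r = 0.88 and rho = 0.61, but r = -0.12 without the 2 farthest, so that relation rests on replicates 6 and 7. Without replicate 7 the endothelial count was 1, and without replicate 6 it was 3.

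Matrix genes did not vary as a block. Of 27 measured genes for collagens, their processing and the proteins that bind them, 3 had an SD of 1 or more and 24 did not. Of all genes, 4.5% reached that limit. The median SD was 0.46, against 0.29 for all genes, so the list was not steadier than other genes. The median correlation between members was 0.16. The list's score had the narrow range of 8.22 to 9.09 log2 units.

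Col1a1, the main chain of fibrous collagen, had 2443, 2939, 2140, 4766, 3933, 2691 and 2018 CPM, a mean of 2990 ± 1008 (SD, n = 7). Replicates 4 and 5 were the highest. Its closest genes were Lsm14a (r = 0.97), Paip1 and Zfp85 (both 0.96), its partner chain Col1a2 (0.95) and Zfp644 (0.94), most of which hardly varied. Lsm14a, for example, lay between 103 and 119 CPM.

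The 3 variable members were Col11a1 (SD 2.08), a minor fibril collagen of cartilage, Col8a1 (1.78), a short-chain collagen made by activated smooth muscle, and Lum (1.18), which encodes the fibril-binding lumican. Col8a1 had 6.09, 26.5, 4.94, 8.35, 178, 19.3 and 35.2 CPM, and Col11a1 was at 31.3 CPM in replicate 5 and at 2.43 CPM or less elsewhere. All 3 were highest in replicate 5. Next came Dcn (0.97), which encodes decorin, Col5a3 (0.95) and Col12a1 (0.84). Without replicate 5, 1 member had an SD of 1 or more, and without replicate 4, or with total counts in place of scaling factors, 5 had.

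Injury genes, secreted by wall cells and macrophages after damage, split between replicates 5 and 7. Of 19 measured members, 6 had an SD of 1 or more. Beside Spp1 they were Mmp12 (2.62), Cthrc1 (2.07), Timp1 (2.01), Thbs1 (1.57) and Mmp3 (1.09). Timp1, an inhibitor of matrix proteases, had 36.4, 51.2, 18.4, 33.4, 303, 31.8 and 825 CPM. Thbs1, the adhesion protein thrombospondin, had 53.0, 185, 58.3, 59.7, 613, 63.4 and 532 CPM. Cthrc1, a marker of fibroblasts that make scar, had 2.05, 15.6, 1.74, 5.23, 108, 7.37 and 24.9 CPM.

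Replicates 5 and 7 were the 2 highest for Spp1, Timp1, Thbs1 and Cthrc1, while Mmp12 was high in replicate 5 alone at 45.1 CPM and Mmp3 in replicates 2 and 7. The injury score had r = 0.77 (rho 0.75) with the matrix score and r = 0.72 (rho 0.79) with the macrophage score over n = 7. Without the 2 farthest libraries these were 0.22 and 0.89, so the first rests on replicates 3 and 5, the farthest in the matrix score.

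Of the 5 lysyl oxidase genes, whose enzymes BAPN blocks, none had an SD of 1 or more, which with 4.5% of all genes above that limit says little about so few. Their median SD was 0.42, against 0.29 for all genes. Lox had 548, 710, 863, 869, 1322, 560 and 832 CPM, with replicate 5 highest. Loxl1, needed to keep elastic fibres, had 385 to 750 CPM (SD 0.35), Loxl2 had 67.0 to 176 CPM (0.43), Loxl3 80.8 to 123 CPM (0.18) and Loxl4 4.04 to 9.93 CPM (0.42).

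Of 17 measured elastic fibre genes, 2 had an SD of 1 or more, Efemp1 (1.45) and Fbln1 (1.28), both of the fibulin family. Fbln1 had 125, 211, 21.2, 54.6, 171, 110 and 29.1 CPM, lowest in replicates 3 and 7. Elastin itself, Eln, had 14542, 14395, 24938, 31215, 15682, 13108 and 18102 CPM (SD 0.47), highest in replicates 4 and 3. Adventitial fibroblast genes, those of the outer layer, had an SD of 1 or more in 4 of 14 measured members, Lum, Pi16 (1.17), Dpep1 (1.09) and Dpt (1.08), and 13 of 14 were lowest in replicate 3. Without replicate 3, 1 of them had.

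Contractile smooth muscle genes had a median SD of 0.42, against 0.29 for all genes. None of 20 measured members had an SD of 1 or more, which with 4.5% of all genes above that limit says little about so few. Myh11, the smooth muscle myosin, had 7747, 4731, 6765, 5634, 3148, 3598 and 6947 CPM, a mean of 5510 ± 1756 (SD, n = 7). Acta2, smooth muscle actin, had 28211, 9547, 21016, 18767, 11289, 9834 and 32499 CPM, an SD of 0.73 and the largest of the list. Replicates 2, 5 and 6 were the 3 lowest in 11 of the 20 genes. The closest genes to Myh11 were Ankmy2 (r = 0.996), Plpp7 (0.99), Eml2, Tmem43 and Sh3rf2 (all 0.98).

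The contractile score ran against the scores of macrophages (r = -0.71, rho -0.57), cardiac muscle (r = -0.76, rho -0.61) and endothelium (r = -0.75, rho -0.79) over n = 7. CPM values are relative to a library's total, adjusted by scaling factors of 0.827 (replicate 7) to 1.11 (replicate 2). They are therefore not independent between genes. Summed over the table's members, the contractile list ran from 30646 to 73813 CPM. The macrophage list ran from 257 to 1988 CPM, the cardiac from 60.5 to 382 CPM and the endothelial from 563 to 1938 CPM. What set these opposite orders was not tested.

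Some genes hardly varied. Among genes with a mean of at least 50 CPM, the 5 of smallest SD were Ttc3, Ube2d3, Rab14, Kcmf1 and Irak1, at 0.042 to 0.044 log2 units. Ube2d3, a ubiquitin-conjugating enzyme, lay between 299 and 320 CPM. Clock, heat shock, immediate early and housekeeping genes were not among the steadiest, with median SDs of 0.58, 0.43, 0.61 and 0.33. None of those measured had an SD of 1 or more, which with 4.5% of all genes above that limit says little about such short lists.

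**Figure D3:**
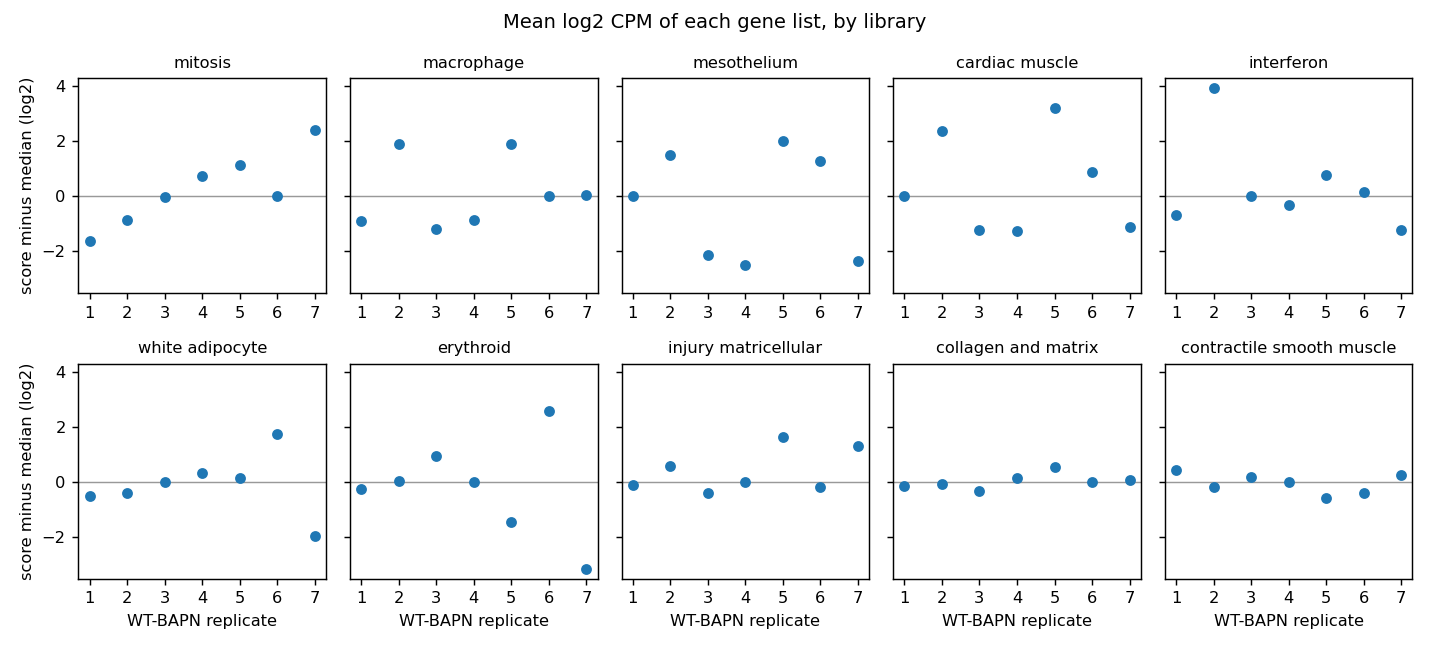
Each point is the score of 1 list in 1 WT-BAPN library, the mean log2 CPM of its measured members, minus the median over the 7 libraries. Mitosis is highest in replicate 7, macrophage in replicates 2 and 5, mesothelium in replicates 5, 2 and 6, interferon in replicate 2 and white adipocyte in replicate 6. Collagen and contractile scores stay close to 0.

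Between the 5 themes of matrix, mitosis, macrophages, mesothelium and white fat, the largest r over n = 7 was 0.74, that of macrophages with mesothelium given above. Mitosis had r = 0.13 (rho 0.32) with macrophages and r = -0.37 (rho -0.21) with mesothelium. Mitosis with white fat had r = -0.34 (rho 0.11), but 0.41 without replicate 7. Macrophages with white fat had r = -0.04 (rho -0.07), and mesothelium with white fat r = 0.42 (rho 0.14, and r = 0.14 without replicate 7). Matrix with mitosis had r = 0.51 (rho 0.79, and r = 0.33 with total counts in place of scaling factors). Matrix with macrophages had r = 0.60 (rho 0.54), but -0.26 without the 2 libraries farthest in the matrix score. Matrix with mesothelium had r = 0.38 (rho 0.07), but -0.74 without the same 2, and matrix with white fat r = 0.06 (rho 0.32).

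To ask the same of single genes, 1 marker gene stood for each. Col1a1 was taken for matrix, Top2a for mitosis, C1qa for macrophages, Msln for mesothelium, Adipoq for fat and Myh11 for contractile muscle. The 15 pairs were tested with exact two-sided permutation over the 5040 orders of the libraries. No pair passed a Benjamini-Hochberg adjusted p of 0.05, and none had an unadjusted p under 0.05, by Pearson's r or Spearman's rho. The smallest adjusted p was 0.466 for r and 0.417 for rho.

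The largest r was that of C1qa with Msln (r = 0.74, exact permutation p = 0.0615, rho = 0.68, p = 0.110, and r = 0.69 without the 2 libraries farthest in C1qa). Msln with Myh11 had r = -0.72 (exact p = 0.0847, rho -0.64, p = 0.139, and -0.80 without 2). Adipoq with Myh11 had r = -0.67 (exact p = 0.0932, rho -0.71, p = 0.0881, and -0.58 without 2), the largest rho in size. At the other end, Top2a had r = 0.03 with C1qa (exact p = 0.948, rho 0.18, p = 0.713, and -0.17 without 2) and r = 0.08 with Col1a1 (exact p = 0.862, rho 0.04, p = 0.963, and -0.65 without 2). Col1a1 with Msln had r = 0.10 (exact p = 0.808, rho 0.25, p = 0.595), but 0.99 without replicates 4 and 5, the farthest in Col1a1. With 7 libraries a moderate relation would not have been detected. Top2a with Adipoq had r = -0.24 (exact p = 0.632, rho 0.11, p = 0.840), and 0.57 without replicate 7.

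**Figure D4:**
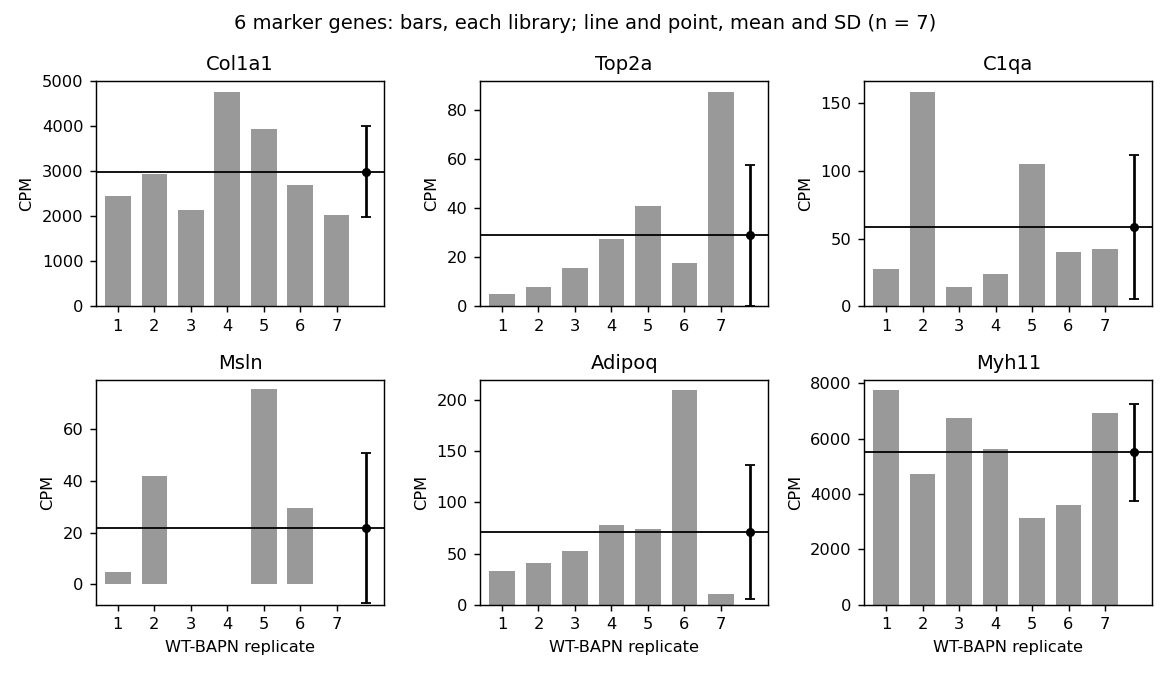
CPM of the 6 marker genes in the 7 WT-BAPN libraries, as bars on linear axes, with the mean as a line and its SD as a point with bars at the right (n = 7). Top2a is highest in replicate 7 (87.3), C1qa in replicate 2 (158), Msln in replicate 5 (75.5) and Adipoq in replicate 6 (210), so no 2 of these 4 genes share their highest library. This does not hold for their lists, since 15 of 25 macrophage and 7 of 10 mesothelial genes were highest in replicate 5.

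The marker genes lie, in the GENCODE annotation of GRCm38, at chr11:94936224-94953042 on the plus strand (Col1a1), chr11:98992943-99024189 on the minus strand (Top2a), chr4:136895917-136898803 on the minus strand (C1qa), chr17:25748613-25754378 on the minus strand (Msln), chr16:23146536-23158028 on the plus strand (Adipoq) and chr16:14194535-14291372 on the minus strand (Myh11). Each span is the whole gene, exons and introns together.

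Genes in which 1 library lay apart were counted with Dixon's ratio, the gap of the extreme library to its neighbour over the whole range, above its 95% critical value. There were 854, or 7.89% of the 10830 genes, with the library highest in 495 and lowest in 359. Chance flags about 1 in 20 groups. Replicate 7 was that library in 575 genes (67.3%), replicate 2 in 88 and each of the others in 30 to 45.

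Genes high in replicate 7 alone included, chosen after their values were seen, H2az1, a histone variant, at 231 CPM against 46.1 to 79.2 CPM, and the tubulin gene Tuba1c, at 257 CPM against 50.1 to 90.9 CPM. Hmox1, the heme-degrading enzyme and also chosen afterwards, was at 458 CPM in replicate 5 against 9.46 to 20.7 CPM. Slc40a1, the iron exporter ferroportin, was at 46.0 CPM there against 1.03 to 3.52 CPM. In replicate 2, Igtp, another interferon-induced GTPase, was at 329 CPM against 3.67 to 20.3 CPM.

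**Figure D5:**
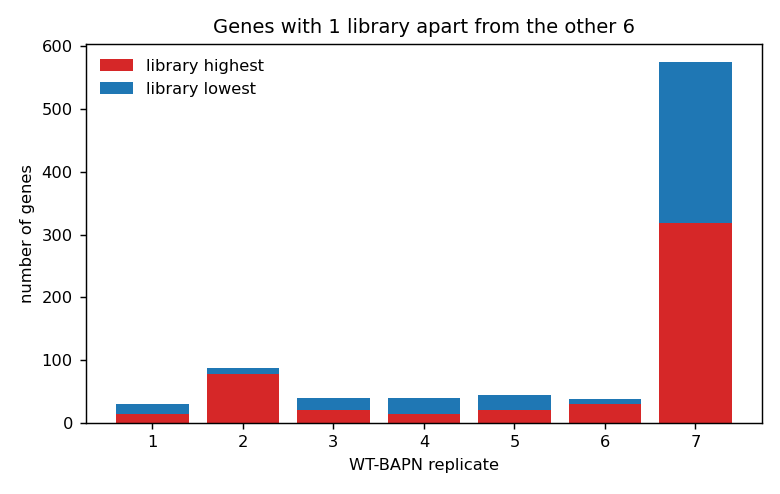
Number of genes in which a WT-BAPN replicate lay apart from the other 6, as bars starting at 0. Red counts genes where it was highest, blue where it was lowest. Replicate 7 holds 575 of the 854, with 319 high and 256 low.

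Gene length went with the place of replicate 7. Genes high there alone had a median length of 3537 bases, genes low there alone 5998 bases, and all measured genes 4715 bases. In that library genes of the lowest length decile deviated by a median of 0.48 log2 units from their means over the libraries, and those of the highest by -0.17. With the length trend taken out of each library, a choice made after seeing the data, replicate 7 was the library apart in 556 of 878 genes, and how many of them are among the 575 was not counted. Whether RNA quality or the library's preparation contributed was not tested.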

How the data were processed

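The values used are raw counts of reads per gene in 1 table deposited by the authors. Trim Galore, FastQC, HISAT2 and DESeq2, with GRCm38 and mm10 as builds, are listed in the submitters' processing notes. How reads were counted, with what strand setting and which versions, is not given in the sources used here. A gene's reads may therefore include some that an overlapping or antisense gene shares with it. Codes in the labels tie each count column to its sample, and 0 columns had no match.

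From the 7 WT-BAPN count columns, edgeR 4.0.16 in R 4.3.3 computed TMM factors and log2 CPM with a prior count of 2. Printed CPM values use the same factors and no prior count. Genes with a mean of at least 5 CPM were kept, and the SD of log2 CPM was taken over the libraries. Scores average log2 CPM over a list's measured members, or of all members in the table where fewer than 3 were measured. The 31 lists hold 519 genes, of which 512 are in the table. Summed list levels take all members in the table. Sampling of 13908765 to 22412134 counts per library gives a median counting SD of 0.06 log2 units, which covers counting error only. Correlations, exact permutation tests and linkage used Python 3.11.15 with numpy 2.4.6 and scipy 1.17.1, and figures were drawn with matplotlib 3.10.9. Recovery of added spread, the exact permutation test and the linkage were tested on simulated data, and the other steps were not.

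Named are the 25 genes of largest SD, up to 6 members of largest SD per list described, the 6 marker genes with the 5 genes of highest r to each, the 5 steadiest genes above a mean of 50 CPM, the 5 genes nearest each group's mean and the lysyl oxidase family. Hoxa7 and Dll1, the genes on either side of the SD limit, and genes with 1 library apart were added. The members, lists and tests were chosen with earlier results of these data known. Alternatives were other scaling factors (total counts, DESeq2 1.42.0, TMM over all 24 libraries), prior counts of 0.5 and 5, mean CPM limits of 1 and 20, the median absolute deviation, edgeR's biological coefficient of variation, the top 100 and 500 genes, Spearman's rho for linkage and each library left out. For counts of list members with a library left out, scaling factors and the mean CPM limit were applied again, so the measured members could change. Removal of the length trend was added after seeing the data.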

Additional observations from a re-analysis of the deposited data

Results flagged for a closer look

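In a group of 7 libraries, Dixon's ratio puts 1 library apart by chance in about 1 in 20 groups, and 7.89% of all measured genes passed it. Of 161 genes that the naming rule takes, 7 passed. Replicate 2 stood high for Zbp1 (94.7 CPM), Ifit1 (103 CPM), Gbp3 (297 CPM), Rtp4 (98.0 CPM) and Gm4951 (32.1 CPM), of which the first 4 are known to be induced by interferons, and for the interferon score (6.94 log2 units against 1.79 to 3.81 in the others). Replicate 5 stood high for Clec4n (55.9 CPM) and for the chondrocyte score (4.75 log2 units), which rests on 5 measured genes. Replicate 1 stood low for Ttc3 (94.0 CPM), one of the steadiest genes.

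Replicate 7 stood high for the housekeeping score (7.86 log2 units) and for the airway epithelium score (-0.028 log2 units), although no airway gene reached a mean of 5 CPM and the list summed to 18.3 CPM there. It also stood apart in the number of genes in which 1 library was extreme (575) and in the median deviation of the genes of the highest length decile (-0.17 log2 units).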

How the results depend on the processing

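No paired analysis was possible because no group was compared, so the replicate numbers pair nothing. The 487 genes with an SD of 1 or more became 1039 with a mean CPM limit of 1 and 147 with a limit of 20, since more or fewer genes enter by construction, and 401 to 564 with 1 library left out. Of the 100 most variable genes, 45 were shared with the 100 found with the lower limit, 33 with the higher limit, 45 with the median absolute deviation and 59 to 94 with 1 library left out, the fewest without replicate 2. There were 7 groups over the top 500 genes and 3 to 6 with 1 library left out. No marker pair passed the threshold under any alternative. Weak correlations changed sign. C1qa with Adipoq had r = 0.11 with total counts, 0.21 with the length trend removed and -0.14 to 0.0457 with 1 library left out. Col1a1 with Msln had -0.0051 with a prior count of 0.5 and -0.19 to 0.91 with 1 library left out (0.91 without replicate 4). Top2a with C1qa had -0.0586 with the length trend removed and -0.15 to 0.46 with 1 left out. With 1 left out, Col1a1 with Top2a ran from -0.0728 to 0.65, Top2a with Adipoq from -0.49 to 0.57 and Top2a with Myh11 from -0.64 to 0.17. The cause was not tested. Counts of list members with an SD of 1 or more moved by over 1.5 times in 57 of 409 alternatives. Genes below 5 CPM were not ordered, since counting error is larger there.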

Other observations

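Lymphatic vessel genes were among the variable ones, with an SD of 1 or more in all 4 measured members. Ccl21a, the chemokine that guides cells into lymphatics, had 3.82, 26.9, 0.905, 10.1, 23.9, 18.6 and 0.594 CPM in replicates 1 to 7, and Mmrn1, a protein of lymphatic endothelium, had 2.48, 22.2, 1.74, 3.56, 10.1, 12.7 and 0.270 CPM. Replicates 2, 5 and 6 were the 3 highest in all 4 genes, as in 9 of 10 mesothelial genes.

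Of 11 measured mitochondrially encoded genes, 3 had an SD of 1 or more (mt-Atp6, mt-Nd6 and mt-Co3), and 10 were lowest in replicate 3. Without replicate 3 none had. mt-Co3 had 515, 205, 124, 327, 428, 1280 and 741 CPM, highest in replicate 6.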
